A study of Mus musculus with 21 samples.

Results

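The Notch receptors, their ligands and their direct target genes were described across 3 mouse cell lines in which the long noncoding RNA Esrp2-as had been lowered or raised. The genes were the receptors Notch1, Notch2, Notch3 and Notch4, the ligands Jag1, Jag2 and Dll1, and the targets Hes1, Hey1 and Heyl. They were found by their Ensembl identifiers, and all 10 were among the 48440 genes of the count table. Notch receptors are cleaved when a Jagged or Delta ligand on a neighbouring cell binds them. The freed intracellular part then enters the nucleus, joins the DNA-binding protein RBPJ and switches on genes such as Hes1 and the Hey genes, which encode transcriptional repressors. In the mammary gland the pathway takes part in the choice between luminal and basal fates, and in preadipocytes Jag1, Hes1 and the related protein Dlk1 have been studied in adipocyte differentiation.

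3T3-L1, a preadipocyte line, was measured with Esrp2-as overexpressed in 2 replicates, against 2 empty vector controls. M27H4, a line from a mammary gland tumour of the C3(1)SV40 TAg mouse, which carries SV40 T antigen under the C3(1) promoter, was measured with Esrp2-as overexpressed in 3 replicates, against 3 empty vector controls. M6, another tumour line of the same mouse model, was measured after knockdown of Esrp2-as with LNA antisense gapmers in 2 replicates, against 2 controls that the labels also call empty vector. All cells grew in DMEM with 10% FCS, and total RNA depleted of ribosomal RNA was sequenced from libraries of a strand-specific kit. The labels call the replicates biological but do not say whether they were separate cultures, so a p value here measures the spread between these samples. In bulk RNA, fewer cells with a transcript and less transcript per cell cannot be told apart, and the contrasts between lines compare these lines and not tissues.

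The 14 replicates held 34892461 to 328493417 counts each, after columns that the labels call technical replicates had been summed. Levels are in CPM, the usual counts-per-library unit scaled here to the effective library size, and a call is an edgeR quasi-likelihood adjusted p under 0.05, adjusted over the 21237 genes tested. Esrp2-as was at 35.5 to 45.8 CPM in 3T3-L1 overexpression and 0.25 to 0.355 CPM in 3T3-L1 control. It was at 15.9 to 65.8 CPM in M27H4 overexpression and 0.731 to 1.25 CPM in M27H4 control. It was at 0.527 and 0.851 CPM in M6 knockdown and at 2.96 and 2.42 CPM in M6 control. The rise was called in 3T3-L1 and M27H4, while the lower level in M6, a log2 fold change of -1.92, had an edgeR adjusted p of 0.363. The sum of 9 epithelial markers was 23.8 to 30.6 CPM in 3T3-L1 control, 165 to 294 CPM in M27H4 control and 4360 to 6370 CPM in M6 control. The sum of 8 preadipocyte and fibroblast markers was 2680 to 2950 CPM in 3T3-L1 control, 860 to 1040 CPM in M27H4 control and 43.5 to 47.2 CPM in M6 control. All 9 epithelial markers were called lower by edgeR in M27H4, labelled as a mammary tumour line, than in M6, from 4.55-fold for the cadherin gene Cdh1 to 168-fold for the cell adhesion gene Epcam. Cdh1 averaged 2.36 CPM in 3T3-L1 control, 134 CPM in M27H4 control and 611 CPM in M6 control, and Cdh1, Krt18 and Krt8 were called lower in 3T3-L1 than in M27H4. The libraries of M6 replicate 1, in both groups, stood apart from those of replicate 2 for several Notch genes, so the differences of the Notch genes from M6 are given with and without M6 control replicate 1.

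**Figure D1:**
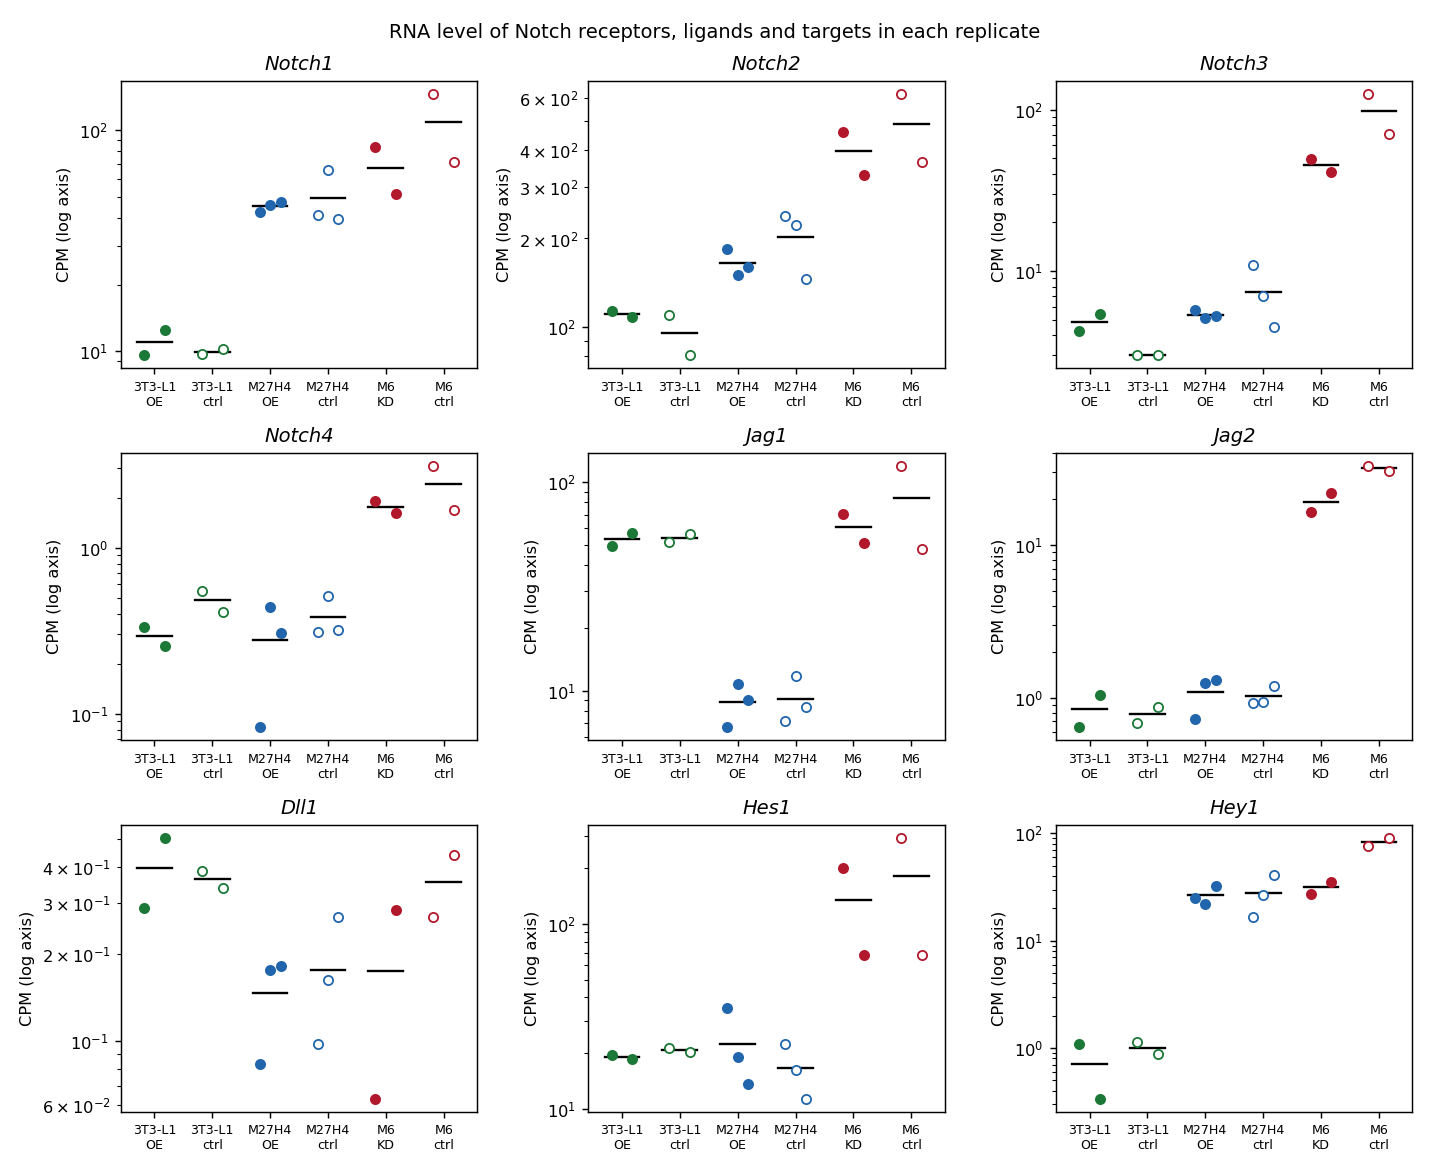
RNA level in CPM on a log axis, with its own range in each panel, for the 9 Notch genes that passed the filter on low counts, by group (3T3-L1 green, M27H4 blue, M6 red). Each point is a replicate, filled for overexpression (OE) or knockdown (KD) and open for control (ctrl), and each bar is a group mean; Jag1 is below 12 CPM in every M27H4 library, Hey1 is below 1.2 CPM in every 3T3-L1 library, and the M6 replicates of Hes1 lie far apart.

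M6 held most of these transcripts at higher levels than the other lines, and the lines differed in which receptors, ligands and targets they kept. Of the 9 genes tested, edgeR called 4 lower and 1 higher in 3T3-L1 control than in M27H4 control, where 17.8% of all genes were called lower and 18.9% higher. In 3T3-L1 control against M6 control it called 7 lower and 0 higher, where 18.9% of all genes were called lower and 20.5% higher. In M27H4 control against M6 control it called 8 lower and 0 higher, where 15.0% of all genes were called lower and 15.2% higher. Replicate ranges lay apart for 5 lower and 2 higher genes in 3T3-L1 against M27H4, where 28.2% of all genes were lower and 32.3% higher with ranges apart. They lay apart for 7 lower genes in 3T3-L1 against M6 (31.2% of all genes lower and 36.4% higher) and for 8 lower genes in M27H4 against M6 (23.5% lower and 24.2% higher). The median log2 difference of the 9 genes was -3.13 in 3T3-L1 against M6 and -2.63 in M27H4 against M6, beside medians of 0.05 and 0.02 over all genes. Without M6 control replicate 1 the medians against M6 were -1.92 in 3T3-L1 and -2.04 in M27H4. In the lanes that carried control libraries of all 3 lines they were -1.69 and -1.76. In 3T3-L1 against M27H4 the median was -0.39, beside 0.02 over all genes. The contrasts against M6 share the same M6 controls, of which there were 2.

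Among the receptors, Notch3 (ENSMUSG00000038146, chromosome 17 from 32120820 to 32166852, minus strand, on GRCm38) differed most between M6 and the other lines. Notch3 is the receptor known from vascular smooth muscle, and it is also expressed in mammary luminal progenitors. It was at 3.01 and 3.03 CPM in 3T3-L1 control, at 10.9, 6.99 and 4.49 CPM in M27H4 control and at 125 and 70.2 CPM in M6 control. The 3 lines did not overlap. The level was 32.3-fold lower in 3T3-L1 than in M6 (log2 -5.01, SE 0.41, edgeR adjusted p = 5.97e-07) and 13.1-fold lower in M27H4 than in M6 (log2 -3.71, SE 0.32, edgeR adjusted p = 1.76e-06). These log2 differences were -4.53 and -3.24 without M6 control replicate 1, and both were still called. The smaller difference between 3T3-L1 and M27H4, log2 -1.30 with an edgeR adjusted p of 0.00718, stayed as large without either 3T3-L1 control replicate, but was then not called: it was -1.29 (0.061) without replicate 1 and -1.28 (0.065) without replicate 2. Between the overexpression libraries of these lines it was -0.15 (0.773).

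The sequence before the Notch3 start is shown because Notch3 had the largest line difference among the receptors and is, in other cells, itself a Notch target. The sequence of Nrarp, a feedback inhibitor induced by Notch and described further on, stands beside it. Both are the 250 bases upstream of the RefSeq transcription start on GRCm38.p6, and none of these bases lies within the GENCODE gene. Capitals mark matches, on either strand, to the E box CACGTG or to CACNAG, an N box type motif bound by Hes repressors.
Notch3, chr17:32166891-32167140, minus strand: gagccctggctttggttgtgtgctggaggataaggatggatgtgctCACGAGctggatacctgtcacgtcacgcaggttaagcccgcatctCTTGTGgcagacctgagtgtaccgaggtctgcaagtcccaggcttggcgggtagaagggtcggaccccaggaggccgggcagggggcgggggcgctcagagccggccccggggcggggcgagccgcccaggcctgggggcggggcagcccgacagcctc
Nrarp, chr2:25180508-25180757, plus strand: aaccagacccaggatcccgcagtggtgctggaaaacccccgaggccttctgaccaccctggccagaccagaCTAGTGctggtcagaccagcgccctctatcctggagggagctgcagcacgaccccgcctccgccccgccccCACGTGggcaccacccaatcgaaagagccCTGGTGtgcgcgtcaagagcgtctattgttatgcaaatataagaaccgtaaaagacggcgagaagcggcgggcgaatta
The RBPJ core GTGGGAA was also searched on both strands, and neither window holds it. Over 32851 RefSeq windows of the same length, GTGGGAA was in 5.42%, CACGTG in 6.02% and CACNAG in 36.7%. Promoter sequences were matched for 7 of the 10 Notch genes, the receptors and ligands, and none of their windows holds GTGGGAA or CACGTG. No window was available for the targets Hes1, Hey1 and Heyl, so their promoters were not searched. The windows of Notch1, Jag2 and a Dll1 start lie with all 250 bases inside the GENCODE gene, and that of Jag1 with 124 bases. For these genes the windows are thus not all sequence before the GENCODE start. These matches describe letters only, and no binding was measured.

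Notch1 (ENSMUSG00000026923, chromosome 2 from 26457903 to 26516663, minus strand), a receptor studied in mammary tumours of mice, differed between all 3 lines. It was at 9.69 and 10.2 CPM in 3T3-L1 control, at 41.5, 66.2 and 39.8 CPM in M27H4 control and at 145 and 71.5 CPM in M6 control. It was 4.94-fold lower in 3T3-L1 than in M27H4 (edgeR adjusted p = 0.000126) and 10.9-fold lower than in M6 (7.62e-06), and these calls held with every replicate left out. Without M6 control replicate 1 the log2 difference from M6 was -2.83, against -3.44 with it. The 2.20-fold lower level in M27H4 than in M6 (log2 -1.14, edgeR adjusted p = 0.0109) rested on M6 control replicate 1: without it the log2 difference was -0.54 and the adjusted p 0.265. In the lanes that carried control libraries of all 3 lines, where M6 was represented by replicate 2 alone, it was -0.14, with no test.

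Notch2 (ENSMUSG00000027878, chromosome 3 from 98013527 to 98150361, plus strand) was the receptor with the highest level per kilobase in each line. It was at 110 and 80.3 CPM in 3T3-L1 control, at 238, 222 and 146 CPM in M27H4 control and at 619 and 363 CPM in M6 control. The lines did not overlap. Notch2 was 2.12-fold lower in 3T3-L1 than in M27H4 (edgeR adjusted p = 0.00737), 5.15-fold lower in 3T3-L1 than in M6 (4.14e-05) and 2.43-fold lower in M27H4 than in M6 (0.00208). Without 3T3-L1 control replicate 2 the log2 difference between 3T3-L1 and M27H4 was -0.85 and not called (edgeR adjusted p = 0.126), against -1.08 with it. Without M6 control replicate 1 the log2 difference from M6 was -1.92 in 3T3-L1, still called, and -0.85 in M27H4, not called (0.0522).

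Notch4 (ENSMUSG00000015468, chromosome 17 from 34564268 to 34588503, plus strand), a receptor known from endothelium among other tissues, was low in all lines. It was at 0.55 and 0.41 CPM in 3T3-L1 control, at 0.31, 0.51 and 0.32 CPM in M27H4 control and at 3.10 and 1.69 CPM in M6 control. It was 4.93-fold lower in 3T3-L1 than in M6 (log2 -2.30, edgeR adjusted p = 0.00552) and 6.19-fold lower in M27H4 than in M6 (log2 -2.63, 0.00122). When M6 control replicate 1 was left out, the log2 differences were -1.80 (edgeR adjusted p = 0.0469) and -2.14 (0.0159). Without 3T3-L1 control replicate 2 the difference between 3T3-L1 and M6 was -2.15 and not called (0.0571). The summed level of 7 endothelial markers was 0.393 to 0.558 CPM in M6 control, where 3 of them, the endothelial cadherin gene Cdh5 among these, were at 0 counts. In M27H4 control the sum was 22.8 to 32.7 CPM, of which the VEGF receptor gene Kdr was 22 to 32.1 CPM and Cdh5 was at 0 counts.

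Among the ligands, the lines differed in Jag1 and Jag2. Jag1 (ENSMUSG00000027276, chromosome 2 from 137081456 to 137116644, minus strand), a ligand that also signals in adipose and vascular cells, was at 52.0 and 56.3 CPM in 3T3-L1 control, at 7.18, 11.7 and 8.40 CPM in M27H4 control and at 120 and 47.9 CPM in M6 control. The M27H4 levels lay below those of both other lines, and the 3T3-L1 levels lay between the M6 replicates. Jag1 was 5.94-fold higher in 3T3-L1 than in M27H4 (log2 2.57, SE 0.33, edgeR adjusted p = 4.94e-05) and 9.18-fold lower in M27H4 than in M6 (log2 -3.20, SE 0.34, 9.71e-06). The size of the difference between M27H4 and M6 depended on the M6 replicate: the log2 value was -2.40 without M6 control replicate 1, still called, -3.70 without M6 control replicate 2, and -2.01 in the lanes that carried all 3 lines, with no test. Between 3T3-L1 and M6 the log2 difference was -0.63 with an interval at 95% from -1.42 to 0.16 (edgeR adjusted p = 0.197). Its sign depended on the M6 replicate: it was 0.19 (0.734) without M6 control replicate 1 and -1.13 (0.0154) without M6 control replicate 2.

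Jag2 (ENSMUSG00000002799, chromosome 12 from 112907819 to 112929776, minus strand) was far higher in M6 than in the other lines. It was at 0.69 and 0.87 CPM in 3T3-L1 control, at 0.93, 0.94 and 1.20 CPM in M27H4 control and at 32.9 and 30.6 CPM in M6 control. The M6 replicates lay close together. Jag2 was 40.8-fold lower in 3T3-L1 than in M6 (log2 -5.35, SE 0.38, edgeR adjusted p = 1.90e-07) and 31.1-fold lower in M27H4 than in M6 (log2 -4.96, SE 0.31, 1.55e-07), and both calls held under every alternative tested. The log2 differences were -5.29 and -4.90 without M6 control replicate 1. Between 3T3-L1 and M27H4 the log2 difference was -0.39 (interval at 95% from -1.05 to 0.26, edgeR adjusted p = 0.338).

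Dll1 (ENSMUSG00000014773, chromosome 17 from 15367354 to 15376872, minus strand), the Delta ligand of mammary stem cells in mice, was barely detected in any line, at 0.0633 to 0.506 CPM over the 14 replicates. No line difference of Dll1 was called by edgeR, and the log2 intervals at 95% ran from -0.29 to 2.32 in 3T3-L1 against M27H4, from -1.48 to 1.48 in 3T3-L1 against M6 and from -2.33 to 0.31 in M27H4 against M6. With M6 control replicate 1 left out, the log2 difference of Dll1 from M6 was -0.27 in 3T3-L1 and -1.29 in M27H4, neither of them called.

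**Figure D2:**
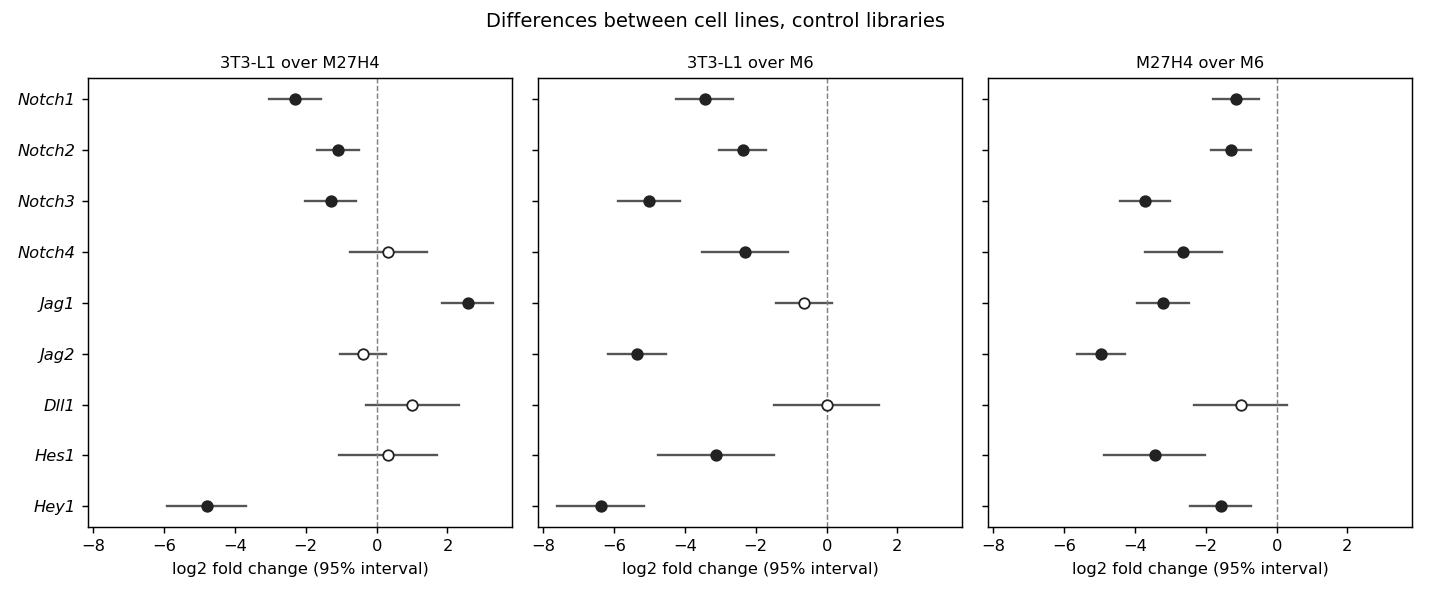
Log2 fold change of each tested Notch gene between the control libraries of the lines, with 95% intervals, on a shared axis (filled points are edgeR adjusted p under 0.05). Most points lie left of 0, Jag1 alone is called to the right of it in 3T3-L1 over M27H4 (2.57), and Hey1 has the lowest value in both panels with 3T3-L1 on top (-4.79 and -6.37).

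The targets Hey1 and Hes1 were highest in M6, but only Hey1 was called between 3T3-L1 and M27H4. Hey1 (ENSMUSG00000040289, chromosome 3 from 8663359 to 8667256, minus strand) was at 1.14 and 0.87 CPM in 3T3-L1 control, at 16.8, 26.4 and 40.6 CPM in M27H4 control and at 75.9 and 91.2 CPM in M6 control. The lines did not overlap, and 3T3-L1 stood far below the others. Hey1 was 27.7-fold lower in 3T3-L1 than in M27H4 (log2 -4.79, SE 0.51, edgeR adjusted p = 1.195e-05) and 82.8-fold lower than in M6 (log2 -6.37, SE 0.57, 1.90e-06). The 2.99-fold lower level in M27H4 than in M6 (log2 -1.58, edgeR adjusted p = 0.00902) was about as large without either M6 control replicate, at log2 -1.71 (0.0328) without replicate 1 and -1.43 without replicate 2, where it was not called (0.0664). Between the overexpression libraries of M27H4 and the knockdown libraries of M6 the log2 difference was -0.24 (0.703). Against 3T3-L1 the log2 difference was -6.49 without M6 control replicate 1.

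Hes1 (ENSMUSG00000022528, chromosome 16 from 30064384 to 30067796, plus strand), a target that other pathways also induce and whose level oscillates in many cells, was at 21.2 and 20.2 CPM in 3T3-L1 control, at 22.5, 16.1 and 11.3 CPM in M27H4 control and at 294 and 68.3 CPM in M6 control. All M6 values lay above those of the other lines, which overlapped each other. Hes1 was 8.73-fold lower in 3T3-L1 than in M6 (log2 -3.13, SE 0.74, edgeR adjusted p = 0.00668) and 10.9-fold lower in M27H4 than in M6 (log2 -3.44, SE 0.64, 0.00207). Without M6 control replicate 1 the differences were log2 -1.71 (edgeR adjusted p = 0.0797) and -2.04 (0.0339). Without 3T3-L1 control replicate 1 or replicate 2 the difference between 3T3-L1 and M6 stayed as large, at log2 -3.23 and -3.14, but was not called (0.0622 and 0.0703). Between 3T3-L1 and M27H4 the log2 difference was 0.32, with an interval at 95% from -1.06 to 1.70.

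Heyl (ENSMUSG00000032744, chromosome 4 from 123233556 to 123249875, plus strand) had 1 and 21 counts in the M6 controls and 0 counts in the other 12 replicates, and it did not pass the filter on low counts. A level of 3 counts over a group would be 0.00857 CPM of the summed totals in 3T3-L1 overexpression, 0.00882 in 3T3-L1 control, 0.00757 in M27H4 overexpression, 0.00768 in M27H4 control and 0.013 in M6 knockdown. The M6 controls together stood at 0.059 CPM. All 21 counts of M6 control replicate 2 came from 2 columns, with 13 and 8 counts, whose lanes held no knockdown column, and its column in the M6-only lane held 0. In that M6-only lane Heyl thus had 0 counts in both knockdown columns, against 1 and 0 counts in the control columns, so no difference with knockdown was detectable at this depth. These limits cover counting error only.

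Set against transcript length, the leading genes changed with the line. In 3T3-L1 control Hes1, Jag1 and Notch2 were at 10.2, 9.29 and 8.84 CPM per kilobase, and the next gene, Notch1, was at 0.70 CPM per kilobase. In M27H4 control Notch2 led at 18.7 CPM per kilobase, before Hey1 at 8.56, Hes1 at 8.18 and Notch1 at 3.46 CPM per kilobase. In M6 control Hes1 averaged 88.8 CPM per kilobase, before Notch2 at 45.5, Hey1 at 25.6, Jag1 at 14.4, Notch3 at 12.1, Notch1 at 7.62 and Jag2 at 4.56 CPM per kilobase. Replicate ranges overlapped between Jag1 and Notch2 in 3T3-L1 and between Hey1 and Hes1 in M27H4. In M6 they overlapped between Hes1 and Notch2, between Jag1 and Notch3 and between Notch3 and Notch1. The other neighbours named here did not overlap. The length is that of all annotated exons, so a gene with long unused exons is understated.

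Some exons are shared with other genes, whose own counts were low. The exons of Notch1 overlap those of 0610009E02Rik and Gm13568 on the other strand, at 0 to 0.51 CPM, and those of Notch3 overlap Gm17276, at 0 to 0.0834 CPM. Those of Notch2 overlap Gm42820 on the same strand, at 0.473 to 1.43 CPM. Those of Dll1 overlap A930024N18Rik on the other strand, at 0 to 0.0621 CPM, which leaves the low Dll1 level uncertain, since the strand setting of the counting is not given in the sources used here.

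The low levels were set beside those of transcripts that M6 holds in abundance, because most libraries shared a lane with M6 columns. The lane is read here from the last number of the column names, which the labels do not explain. In 3T3-L1, whose lanes all held M6 columns, the epithelial genes Epcam, Krt14 and Cldn7 stood at 0.397 to 0.611% of the M6 control mean. Other epithelial genes set against M6 in this way ranged from 0.326% (Cdh1) to 1.38% (Krt7) in 3T3-L1. There Hey1 stood at 0.404 to 1.36%, Jag2 at 2.03 to 3.27% and Notch3 at 3.09 to 5.54% of the M6 control mean. The M27H4 replicates numbered 1 came from a lane without M6 columns. There Epcam stood at 0.019% in overexpression and 0.00667% in control, while in M27H4 replicates 2 and 3 it stood at 0.648 to 1.21%. Cldn7 stood there at 0.104% and 0%, against 0.704 to 1.2% in replicates 2 and 3. Krt14 fell less, to 0.452% and 0.556%, against 0.924 to 1.64% in replicates 2 and 3, and so stood close to its 3T3-L1 levels. In M27H4 replicate 1, Notch3 stood at 5.84% in overexpression and 11.1% in control, above both other replicates of each group. Jag2 stood at 2.27% in overexpression and 2.91% in control, below both other replicates of each group, and Hey1 at 30.0% and 20.1%. Low levels of Notch3 and Jag2 relative to M6 control were thus also measured in the lane without M6 columns. For 3T3-L1, where the Hey1 level was close to that of the epithelial genes, the part of reads carried over within a lane was not tested.

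**Figure D3:**
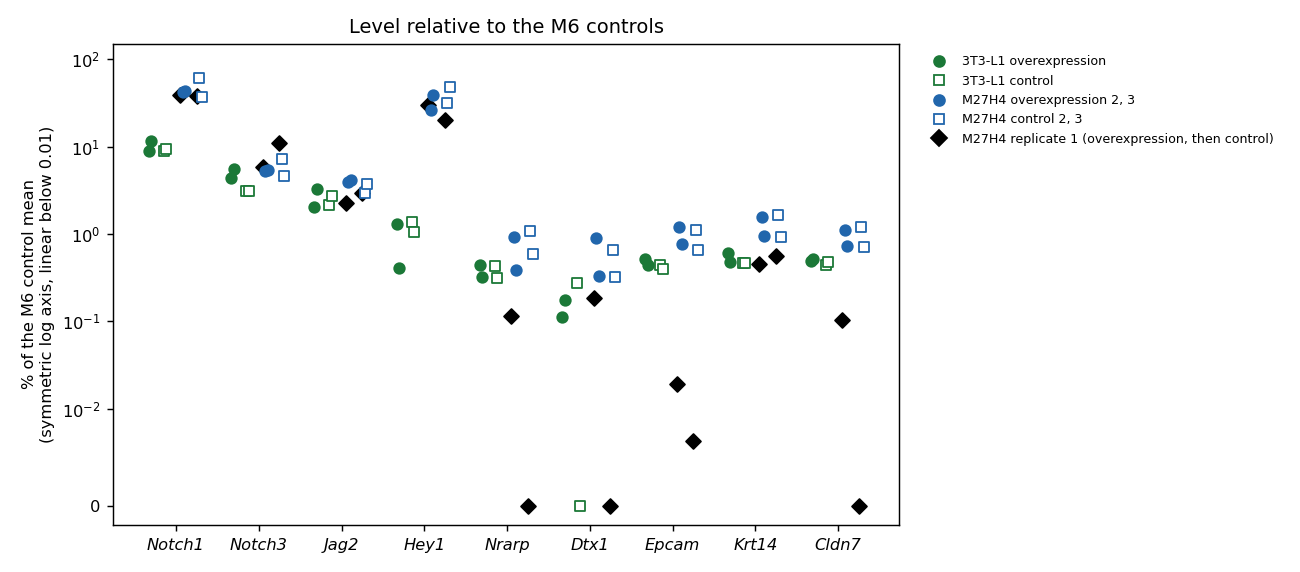
Level of 4 Notch genes, the Notch targets Nrarp and Dtx1 and 3 epithelial genes in each 3T3-L1 and M27H4 library, as a percentage of the M6 control mean, on a symmetric log axis that is linear below 0.01. Black diamonds are the M27H4 libraries from the lane without M6 columns (overexpression left, control right): they lie far below the other M27H4 libraries for Epcam (0.019 and 0.00667%) and Nrarp (0.114 and 0%), and close to them for Notch1, Notch3, Jag2 and Hey1. For Krt14 the diamonds, at 0.452 and 0.556%, lie near the 3T3-L1 libraries.

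The M6 comparison asks which Notch genes differ once Esrp2-as is lowered. Hey1, Notch3 and Jag2 had lower levels in both knockdown replicates than in both controls, but edgeR called 0 of the 9 genes, where 0.137% of all genes were called. An unadjusted p under 0.05 was reached by 3 of the 9 genes and by 6.26% of all genes. Replicate ranges lay apart for 3 of the 9 genes, all lower, where 13.8% of all genes were lower and 12.6% higher with ranges apart. All 9 log2 fold changes were below 0, with a median of -0.68, while 53.4% of all genes were below 0, with a median of -0.03. Marker lists also differed between these libraries. The 7 immune markers summed to 221 to 235 CPM in M6 knockdown and 133 to 135 CPM in M6 control, nearly all of it Cd14, a receptor for bacterial lipopolysaccharide that epithelial cells can also express, and 3 of the 7 were at 0 in both groups. The 5 mammary markers summed to 657 to 884 CPM in M6 knockdown and 408 to 559 CPM in M6 control, most of it the keratin gene Krt7, with Elf5 at 0 in M6 knockdown. The median log2 fold change of these 5 genes was -0.35, so most of them were lower in knockdown although the sum was higher. The 9 epithelial markers overlapped, at 3950 to 5780 CPM in M6 knockdown and 4360 to 6370 CPM in M6 control. None of these markers was called, and their part in the Notch values was not tested.

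Hey1 was at 27.5 and 35.3 CPM in M6 knockdown, against 75.9 and 91.2 CPM in M6 control. The groups did not overlap, and the fold was similar in each replicate number. The log2 fold change was -1.41 (SE 0.45, interval at 95% from -2.40 to -0.43, unadjusted p = 0.00852, edgeR adjusted p = 0.486). It lay between -1.62 and -1.24 under 14 alternatives. It was called by edgeR only with each deposited column as a library (adjusted p = 0.0137). That setting counts columns that the labels call technical replicates as separate samples.

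Notch3 was at 49.3 and 41.0 CPM in M6 knockdown, against 125 and 70.2 CPM in M6 control. The groups did not overlap, but the controls differed 1.78-fold from each other. The log2 fold change was -1.11 (SE 0.35, interval at 95% from -1.86 to -0.36, unadjusted p = 0.00671, edgeR adjusted p = 0.441), and without M6 control replicate 1 it was -0.56 (0.772). With each column as a library the adjusted p was 0.0431.

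Jag2 was at 16.3 and 21.9 CPM in M6 knockdown, against 32.9 and 30.6 CPM in M6 control. The groups did not overlap, and the log2 fold change was -0.73 (SE 0.32, interval at 95% from -1.41 to -0.05, unadjusted p = 0.0368, edgeR adjusted p = 0.73). It lay between -1.01 and -0.48 under 14 alternatives, none of which called it.

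The other 6 genes overlapped between the groups. Notch1 was at 83.9 and 51.2 CPM in M6 knockdown, against 145 and 71.5 CPM in M6 control, a log2 fold change of -0.68 (edgeR adjusted p = 0.845). Notch2 was at 462 and 328 CPM in M6 knockdown, against 619 and 363 CPM in M6 control, with a log2 fold change of -0.31. Jag1 was at 70.6 and 51.1 CPM in M6 knockdown, against 120 and 47.9 CPM in M6 control, so that the order of the groups turned between replicate numbers. Notch4 was at 1.92 and 1.61 CPM in M6 knockdown, against 3.10 and 1.69 CPM in M6 control. Without M6 control replicate 1, 4 of the 9 log2 fold changes were below 0 and their median was 0.00.

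Hes1 varied more between replicates than between groups. It was at 201 and 67.6 CPM in M6 knockdown, against 294 and 68.3 CPM in M6 control, so replicate 1 was 2.97-fold above replicate 2 in knockdown and 4.30-fold above it in control. The log2 fold change was -0.43 with an interval at 95% from -1.95 to 1.09 (edgeR adjusted p = 1), and it was 1.07 without M6 control replicate 1 and 0.15 without M6 knockdown replicate 2. Of 13508 genes with a mean of at least 1 CPM, 16 had ratios of replicate 1 to replicate 2 at least as high as those of Hes1 in both groups. In single columns, scaled to the column total, Hes1 was at 318 CPM in control replicate 1 and at 65.5 CPM in control replicate 2 within the lane that held M6 samples alone. In 2 other lanes control replicate 2 was at 61.8 and 65.4 CPM, so its columns lay close together across lanes.

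Notch1, Notch2, Notch3, Notch4 and Jag1 were also higher in replicate 1 than in replicate 2 in both groups, by 1.19-fold (Notch4) to 1.64-fold (Notch1) in knockdown and by 1.71-fold (Notch2) to 2.50-fold (Jag1) in control. Hey1 went the other way, at 0.78 and 0.83 times replicate 2 in knockdown and control. Jag2 was at 0.75 times replicate 2 in knockdown and 1.08 times in control. The median control ratio of all genes with a mean of at least 1 CPM was 0.89.

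**Figure D4:**
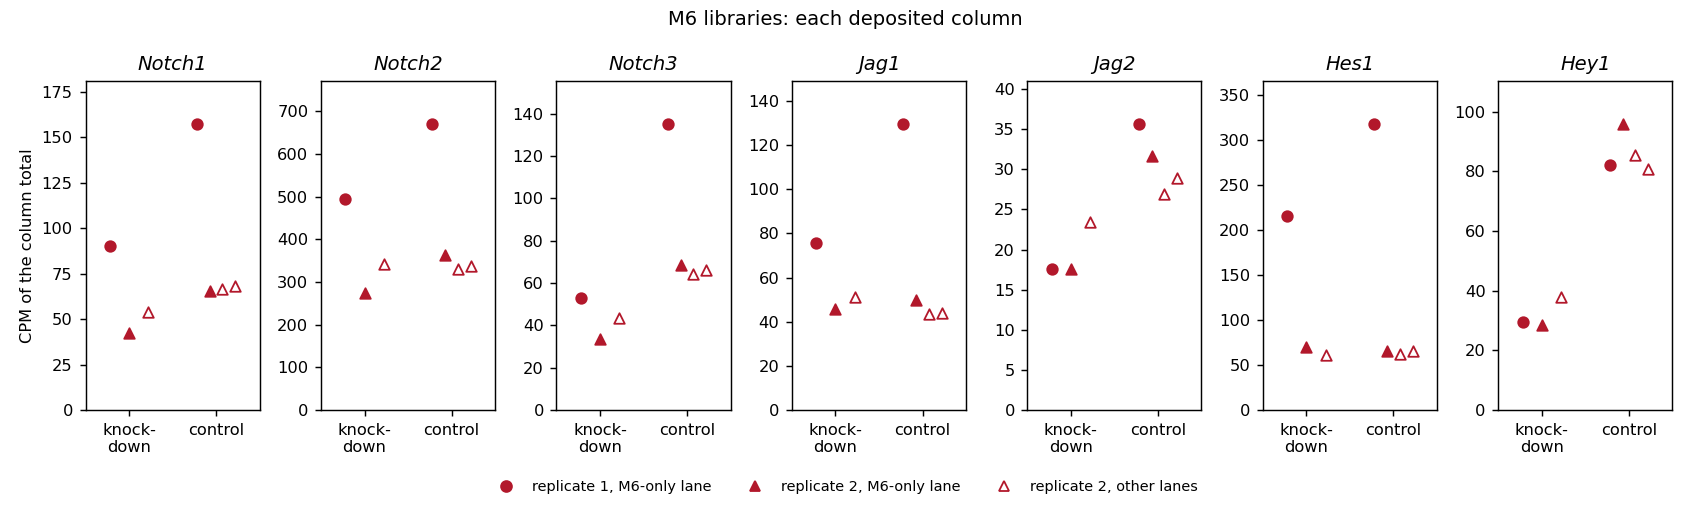
CPM of the column total for 7 Notch genes in each deposited M6 column, knockdown left and control right, with axes from 0. Circles are replicate 1 and triangles replicate 2 (filled for the M6-only lane, open for other lanes): the Hes1 circles, at 216 in knockdown and 318 in control, lie far above all triangles, while all Hey1 knockdown columns, at 28.4 to 37.7, lie below all control columns, at 80.8 to 95.9.

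The comparisons in 3T3-L1 and M27H4 ask which Notch genes differ once Esrp2-as is raised. In 3T3-L1 edgeR called 0 of the 9 genes, where 0.00471% of all genes were called, and 0 of the 9 had an unadjusted p under 0.05. The log2 fold changes ran from -0.71 (Notch4) to 0.68 (Notch3), with a median of 0.10 beside 0.00 over all genes, and 4 of the 9 were below 0, beside 49.1% of all genes. Notch3 was at 4.27 and 5.40 CPM in 3T3-L1 overexpression, against 3.01 and 3.03 CPM in 3T3-L1 control. The groups did not overlap, and the unadjusted p was 0.0723 (interval at 95% from -0.07 to 1.43). The ranges of Notch4 and Hes1 also lay apart, both lower, where 12.1% of all genes were higher and 11.2% lower with ranges apart. Jag1 was at 49.3 and 57.1 CPM in 3T3-L1 overexpression, against 52.0 and 56.3 CPM in 3T3-L1 control, with an interval at 95% from -0.81 to 0.76. Hes1 was at 19.5 and 18.6 CPM in 3T3-L1 overexpression, against 21.2 and 20.2 CPM in 3T3-L1 control, a log2 fold change of -0.12. Notch4 was at 0.33 and 0.26 CPM in 3T3-L1 overexpression, against 0.55 and 0.41 CPM in 3T3-L1 control. Notch1, at 9.62 and 12.5 CPM in 3T3-L1 overexpression, overlapped its controls, and so did Notch2, at 114 and 109 CPM, and Hey1, at 1.09 and 0.34 CPM.

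In M27H4 edgeR called 0 of the 9 genes, where 0.00942% of all genes were called, and 0 of the 9 had an unadjusted p under 0.05. All 9 overlapped between overexpression and control, where 2.68% of all genes were higher and 2.42% lower with ranges apart. The log2 fold changes ran from -0.47 (Notch3) to 0.43 (Hes1), with a median of -0.12 beside -0.03 over all genes, and 7 of the 9 were below 0, beside 55.2% of all genes. Notch3 was at 5.70, 5.12 and 5.24 CPM in M27H4 overexpression, against 10.9, 6.99 and 4.49 CPM in M27H4 control, and its interval at 95% ran from -1.09 to 0.14. Hes1 was at 34.9, 19.0 and 13.6 CPM in M27H4 overexpression, against 22.5, 16.1 and 11.3 CPM in M27H4 control, so each replicate number was higher in overexpression while the groups overlapped. Hey1 was at 25.1, 22.1 and 32.4 CPM in M27H4 overexpression, against 16.8, 26.4 and 40.6 CPM in M27H4 control. Notch1, at 42.7 to 47.2 CPM in M27H4 overexpression, Notch2, at 150 to 184 CPM, and Jag1, at 6.72 to 10.7 CPM, had log2 fold changes of -0.12, -0.30 and -0.04.

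**Figure D5:**
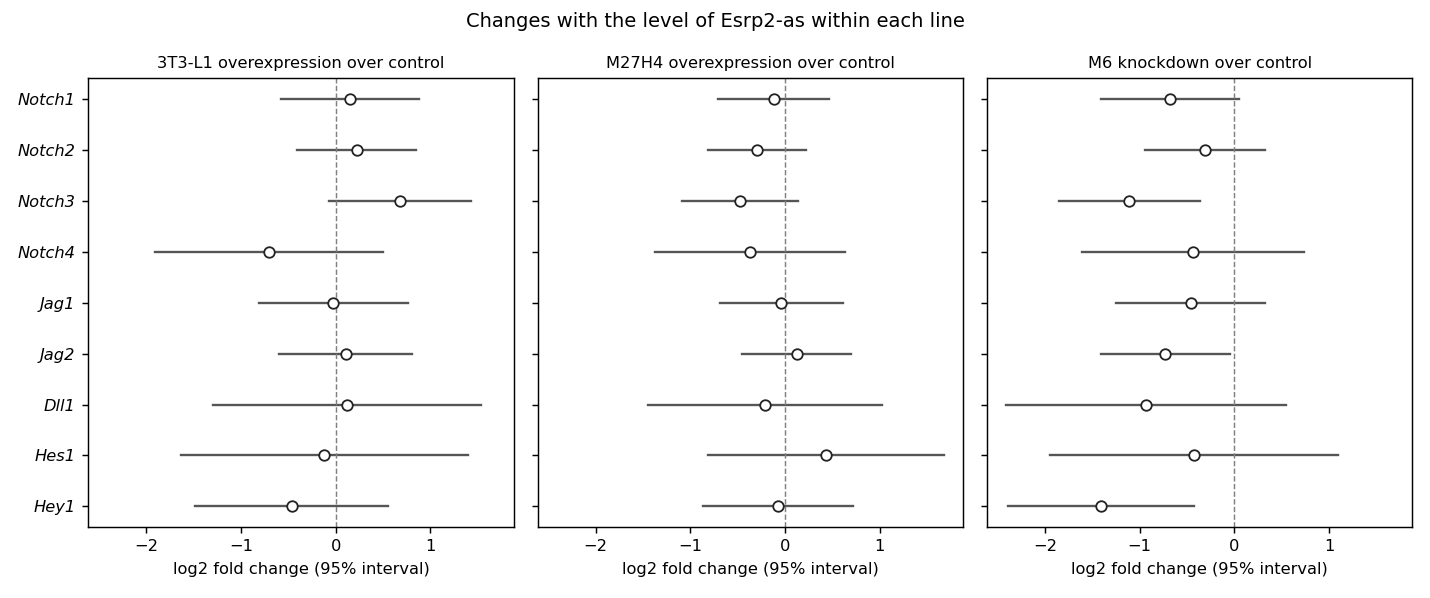
Log2 fold change of each tested Notch gene with the treatment, with 95% intervals, on a shared axis (open points, since no edgeR adjusted p was under 0.05). In M6 knockdown all 9 points lie left of 0 and the intervals of Notch3, Jag2 and Hey1 do not reach it; in both overexpression panels all 9 intervals cross 0.

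The effects themselves were compared between lines. None of the 9 genes was called by edgeR in the difference between the overexpression effects of M27H4 and 3T3-L1, where 0.00471% of all genes were called. Notch3, with a log2 difference of -1.15 (edgeR unadjusted p = 0.023, adjusted p = 1), alone had an unadjusted p under 0.05 there. When the effect of overexpression in M27H4 was subtracted from that of knockdown in M6, none was called either, where 0.0283% of all genes were called. There the log2 difference of Hey1 was -1.34 (edgeR unadjusted p = 0.0382, adjusted p = 1), and no other of the 9 had an unadjusted p under 0.05. Limma voom called none of the 9 in either difference, and in the second its unadjusted p was 0.00848 for Hey1 and 0.0396 for Jag2.

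The other genes of the pathway were read from 6 lists of 54 genes, of which 52 were tested. None was called by edgeR in M6 knockdown, in M27H4 overexpression or in 3T3-L1 overexpression. Between control lines, 8 were called higher and 15 lower in 3T3-L1 than in M27H4, 9 higher and 19 lower in 3T3-L1 than in M6, and 11 higher and 8 lower in M27H4 than in M6. Of all genes, 18.9% were called higher and 17.8% lower in the first of these contrasts, 20.5% and 18.9% in the second, and 15.2% and 15.0% in the third.

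Of 9 other target genes, 8 were tested, with calls in both directions. In 3T3-L1 against M27H4, 1 was called higher and 2 lower, beside 18.9% and 17.8% of all genes. In 3T3-L1 against M6 it was 1 higher and 5 lower (20.5% and 18.9%), and in M27H4 against M6 2 higher and 3 lower (15.2% and 15.0%). Gata3, on this list, was called higher in M27H4 than in M6 (log2 2.54) and lower in 3T3-L1 than in M6 (log2 -2.51). Nrarp, the feedback inhibitor whose promoter is shown above, was at 0.632 and 0.460 CPM in 3T3-L1 control, at 0, 1.60 and 0.864 CPM in M27H4 control and at 151 and 142 CPM in M6 control. It was called lower by edgeR in 3T3-L1 than in M6 (log2 -8.05, adjusted p = 0.00134) and in M27H4 than in M6 (log2 -7.39, adjusted p = 0.000786). Nrarp in 3T3-L1 control, at 0.315 and 0.432% of the M6 control mean, was no higher than Krt14 and Cldn7 there (0.44 to 0.477%), and the part of reads carried over within a lane was not tested. In M6 knockdown Nrarp was at 89.8 and 91.7 CPM, against 151 and 142 CPM in M6 control, and the groups did not overlap. Its log2 fold change was -0.69 with an SE of 1.01 (edgeR adjusted p = 1). That SE rests on the spread of Nrarp over all groups, the M27H4 controls at 0, 1.60 and 0.864 CPM included. It does not measure the spread of the M6 replicates alone.

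Genes of trafficking and ubiquitin ligases that act on Notch or its ligands gave calls in both directions, with 12 of 12 tested. Dtx1, a Deltex gene that Notch induces in lymphocytes, averaged 0.0205 CPM in 3T3-L1 control, 0.0495 CPM in M27H4 control and 15.0 CPM in M6 control, and was called lower by edgeR in both contrasts against M6 (log2 -9.22, adjusted p = 7.65e-06, and -7.96, 4.27e-06). In M6 knockdown Dtx1 was at 5.57 and 6.94 CPM, against 17.7 and 12.4 CPM in M6 control, a log2 fold change of -1.26 (edgeR adjusted p = 0.883). Neurl1a and Neurl1b, ubiquitin ligases related to the fly gene neuralized, which acts in ligand endocytosis, were called higher in M27H4 than in M6 (log2 1.79 and 0.98). Both were called lower in 3T3-L1 than in M6, with Neurl1b at 0.173 CPM ± 0.00655 (SD, n = 2) in 3T3-L1 control and 29.9 ± 5.59 (n = 2) in M6 control.

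Of 6 other ligands and ligand-like genes, 5 were tested. Calls were 2 higher and 1 lower in 3T3-L1 against M27H4, beside 18.9% and 17.8% of all genes. They were 3 higher and 1 lower in 3T3-L1 against M6 (20.5% and 18.9%), and 2 higher and 0 lower in M27H4 against M6 (15.2% and 15.0%). The Delta ligand gene Dll4 was the gene lower in 3T3-L1, at log2 -6.18 (SE 2.09, edgeR adjusted p = 0.0376) against M27H4 and -8.07 (SE 2.06, 0.00885) against M6. Dlk1, a Delta-like protein that lacks the domain by which Delta binds Notch and that marks preadipocytes, was at 58.6 and 49.7 CPM in 3T3-L1 control, at 0, 0.749 and 1.10 CPM in M27H4 control and at 0 and 0.402 CPM in M6 control. It was called higher by edgeR in 3T3-L1 than in M27H4 (log2 6.38, adjusted p = 0.00479) and than in M6 (log2 7.69, 0.00606). Its relative Dlk2 averaged 5.59 CPM in 3T3-L1 control, 4.18 CPM in M27H4 control and 0.229 CPM in M6 control.

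In the contrasts against M6, the nuclear partner of all 4 receptors went the other way from them. Rbpj was at 174 and 119 CPM in 3T3-L1 control, at 185, 138 and 163 CPM in M27H4 control and at 85.0 and 61.6 CPM in M6 control. It was called higher by edgeR in 3T3-L1 than in M6 (log2 1.00, SE 0.27, adjusted p = 0.00952) and in M27H4 than in M6 (log2 1.14, SE 0.25, 0.00353). In 3T3-L1 against M27H4 the log2 difference of Rbpj was -0.14, not called (edgeR adjusted p = 0.6925), with the same sign as Notch1, Notch2 and Notch3. Of 12 genes of the nuclear complex, 3 were higher and 1 lower in M27H4 than in M6, and 2 were higher and 2 lower in 3T3-L1 than in M6. Of 10 protease genes, which encode the enzymes that cut the receptor, 1 was higher and 1 lower in M27H4 than in M6, and 1 higher and 4 lower in 3T3-L1 than in M6. These counts stand beside 15.2% of all genes higher and 15.0% lower in M27H4 than in M6, and 20.5% higher and 18.9% lower in 3T3-L1 than in M6. Psen2, a catalytic subunit of gamma-secretase, averaged 18.3 CPM in 3T3-L1 control, 1.43 CPM in M27H4 control and 5.35 CPM in M6 control. Of 5 genes of fringe and other glycosyltransferases that modify Notch, none was called in M27H4 against M6 and 1, Lfng, was lower in 3T3-L1 than in M6 (log2 -0.81, edgeR adjusted p = 0.0181).

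The genes whose levels ran most like those of each Notch gene over the 14 replicates were taken as the 3 with the highest Pearson correlation of log2 CPM, and since replicates of a line share its level, these values describe lines more than samples. Hey1 ran most like Zc3h14, Ccdc181 and Donson (r = 0.987 each), with 233 of 11987 genes above 0.95. Jag2 ran most like Marveld3, Ndfip1 and Jup (r = 0.991, 0.991 and 0.989), with 224 above 0.95. Notch3 ran most like Clmn, Plxnb1 and Fam210b (r = 0.981 each), with 65 above 0.95. Notch1 ran most like Trps1, Ulk4 and Pxdc1 (r = 0.981, 0.980 and 0.977), and Notch2 most like Sh3rf1, Diaph1 and Ankhd1 (0.987, 0.985 and 0.980). Jag1 ran most like Nedd9, Myo7a and Zfp991 (r = 0.983, 0.982 and 0.981), and Hes1 most like Fut9, Akap9 and Arfgef1 (0.970, 0.965 and 0.965). Notch4 ran most like St3gal6, Bcam and Kcnq1 (r = 0.968, 0.965 and 0.963). For Dll1 no gene was above 0.95, and the nearest were Cyb5rl, Zbtb9 and Cops7b (r = 0.931, 0.910 and 0.897).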

How the data were processed

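The deposited gene and transcript tables hold expected counts, made per the submitters' processing notes with cutadapt, HISAT2, StringTie and edgeR on mm10 (GRCm38), with no versions. The annotation release and the strand setting are not given in the sources used here. The deposited normalised signal tables were not used for tests, and 1 column in each matched no sample and was not used. The 21 columns were summed to 14 replicates in 6 groups as the labels state, with 34892461 to 138313667 counts per column. Identifiers were looked up in GENCODE M21, where 48058 matched.

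Genes were kept with filterByExpr, which left 21237 and 9 of the 10 Notch genes. Libraries were scaled with TMM factors (0.938 to 1.08), and quasi-likelihood tests with robust estimates, fitted once to the 6 groups (edgeR 4.0.16, R 4.3.3, 8 residual degrees of freedom, biological coefficient of variation 0.323) gave p values adjusted by Benjamini and Hochberg over all genes. The script was tested on simulated data. An interval at 95% is that of the log2 fold change. The Notch genes and the lists were chosen with earlier results of these data known. All 10 Notch genes were named, and of other pathway genes up to 4 called members with the smallest p per list and line contrast, plus Dlk1, Nrarp and Rbpj, and 3 genes of like pattern for each. Alternatives were RLE size factors, no filter, DESeq2 1.42.0, limma 3.58.1 (voom), a replicate block, fits of only the lines compared, each replicate left out, columns as libraries, the lanes, and treated libraries for the lines.

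In M27H4 replicates with the same number deviated together from their group means (correlations 0.353, 0.249 and 0.240). Replicates with unlike numbers gave -0.292 to 0.142. Deviations from a group's own mean cancel out within the group, so these values are not independent of the former. In M27H4 the number also goes with the lane, so a shared culture and a shared lane cannot be told apart.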

Additional observations from a re-analysis of the deposited data

How the results depend on the processing

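Of 20 line differences called by edgeR, 14 alternative values fell short of the threshold, all with the same direction, and no called difference reversed under any alternative run. Most calls that ended are named beside their results above. With treated libraries, Notch1 in M27H4 against M6 (log2 -0.58, edgeR adjusted p = 0.176) and Notch2 in 3T3-L1 against M27H4 (-0.57, 0.127) also ended. In M6 knockdown the number of Notch genes called was 0 under all alternatives except 2 (Notch3 and Hey1) with each column as a library, where 559 genes were called in all. With the replicate block, 0 Notch genes were called in each treatment, with Hey1 at an edgeR adjusted p of 0.0508 and Notch3 at 0.0907 in M6. The block called 293 genes in all in M6, 1 in M27H4 and 0 in 3T3-L1, against 29, 2 and 1 without it. The labels do not say that a number marks a shared culture or day, and M6 and 3T3-L1 have only 2 pairs each (correlations 0.334 and 0.245). The block was not run for the line contrasts, since numbers of different lines mark no pair. In 3T3-L1 against M27H4 the 5 calls ranged from 3 to 5 with replicates left out (3 without 3T3-L1 control replicate 2) and were 3 with treated libraries. Leaving out replicates gave 6 to 8 in M27H4 against M6 and 5 to 8 in 3T3-L1 against M6. M6 represented by replicate 2 alone or by replicate 1 alone in both groups was chosen after seeing the data, and gave log2 fold changes of Hey1 of -1.36 and -1.46. The shared lanes hold 1 replicate of each line, so they gave values and no calls. With 2 or 3 replicates a group, the spread of each gene was estimated over all 6 groups together. Intervals of Hes1, Dll1 and Notch4 span over 2 log2 units in every contrast, and those of Hey1 in some. For Hes1 this includes 3T3-L1 overexpression against control (-1.64 to 1.40), where the replicates of each group lay close together.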

Other observations

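Transcript shares gave values that no comparison used, chosen after they were seen. Hes1-201, the protein-coding transcript, held 77.7% and 74.0% of the Hes1 counts in the M27H4 overexpression and control libraries numbered 1, which came from the lane without M6 columns, against 91.6 to 97.4% in the other 12 replicates. A Hey1 transcript annotated as a retained intron held 10.7% and 10.5% of the Hey1 counts in M27H4 overexpression and control replicate 2, and 8.80% and 16.5% in M6 knockdown and control replicate 2. In replicate 1 of these groups it held 0.887, 0.0969, 0.383 and 1.72%. In 3T3-L1 overexpression replicate 2 it held all 38 Hey1 counts, so that the Hey1 level of that library, the lowest measured, held no protein-coding transcript as counted. Notch4-211, annotated as subject to nonsense-mediated decay, held 67 of 91 Notch4 counts in M6 knockdown replicate 1 and 0 counts in the other 13 replicates. Notch3-201 and Jag2-201 held 100% of their gene's counts in all 14 replicates.

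Dtx4, a further Deltex gene of the trafficking list, went against Dtx1 in M6. It was at 112 and 108 CPM in M6 knockdown, against 60.6 and 57.1 CPM in M6 control, with a log2 fold change of 0.90 (edgeR unadjusted p = 0.000741, adjusted p = 0.177). Gata3, a luminal transcription factor on the target list, averaged 11.1 ± 0.0794 CPM in M6 knockdown, against 18.7 ± 0.377 CPM in M6 control (SD, n = 2 each; edgeR unadjusted p = 0.0214, adjusted p = 0.644). It averaged 3.29 CPM in 3T3-L1 control, 109 CPM in M27H4 control and 18.7 CPM in M6 control, so M27H4 held the highest Gata3 level.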
